A study of Homo sapiens with 10 samples.

Results

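The p21-activated kinases (PAKs) are a family of 6 serine/threonine kinases, here the rows PAK1, PAK2 and PAK3 (group I) and PAK4, PAK5 and PAK6 (group II) among the 19590 genes of a table of RNA-Seq normalized counts. PAK5 was formerly named PAK7. The family was chosen by the normalized counts of the same libraries, in which PAK5 was known to be far lower in IRF8 knockout cells. The difference between knockout and control is therefore given for the 6 kinases as a description, without a test.

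PAKs bind the active, GTP-loaded form of the small GTPases RAC and CDC42 and carry their signal to the actin cytoskeleton, in part through LIM kinases and cofilin. Group I kinases are held inactive by an autoinhibitory segment until a GTPase binds, whereas group II kinases are controlled differently. In blood cells the family is known for its part in cell shape, adhesion and migration. PAK2 and PAK4 are made in most tissues, while PAK3 and PAK5 are best known from the brain.

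RNA was sequenced from MV4-11 cells, an established line of acute myeloid leukemia (AML) of the monocytic type with an internal tandem duplication in FLT3, grown in RPMI medium with serum. The control group was MV4-11 infected with the control vector (4 libraries). The IRF8 KO group (4 libraries) came from MV4-11 clones in which IRF8, a transcription factor of myeloid cells, had been targeted by CRISPR/Cas9 delivered with a lentivirus and which were isolated by limiting dilution. The labels do not say which clone a library came from or whether libraries of a group were separate cultures, so differences between clones and effects of the knockout cannot be told apart, and the spread between libraries may be technical. In such bulk RNA, fewer cells expressing a gene and less RNA per cell cannot be told apart either.

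IRF8 transcript, the targeted gene, was measured first. It stood at 36891, 15192, 43016 and 22535 normalized counts in control replicates 1 to 4 and at 6377, 2401, 12903 and 7820 in IRF8 KO replicates 1 to 4. The groups did not overlap, and the log2 fold change was -2.11 ± 0.51 (SE), with an adjusted p of 0.022 (limma, Benjamini-Hochberg over all genes tested). Transcript remained in every knockout library. Transcript is not a measure of protein, and the paper reports no IRF8 protein in the knockout clones by Western blot. It also reports loss of IRF8 from target genes by ChIP-qPCR. The call was lost without control replicate 1, control replicate 3 or IRF8 KO replicate 1 (limma adjusted p of 0.058, 0.057 and 0.053).

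The libraries held 39560072 to 65519047 reads on genes (median 53881275 in the control and 51308898 in the knockout). All 10 markers of myeloid cells had a mean of at least 10 over the 8 libraries, while none of the 5 T cell markers and none of the 4 erythroid markers reached it. Of the 4 B cell markers 3 reached it, and of the 5 epithelial and fibroblast markers 2, among them KRT8 at a mean of 1997 in the control and 173 in the knockout. The T cell marker CD2 had a mean of 1.59 in the control and 10.9 in the knockout, without overlap. The summed level of the myeloid markers was 99020 to 106013 in the control libraries and 127095 to 366683 in the knockout libraries. LYZ alone reached 248604 in knockout replicate 1. The means of MPO (767 and 13378), ITGAM (79.6 and 710), CD68 (2253 and 8149) and PTPRC (3321 and 7886) were higher in the knockout, without overlap. With overlapping groups, the means of LYZ, SPI1 and CEBPA were higher and those of CD33, FLT3 and CSF1R lower in the knockout. The part of these markers in the results below was not tested. Replicates 1 and 3 resembled each other, as did 2 and 4. The mean chi-square per gene between recovered reads was 7.02 for control 1 against 3 and 41.1 for control 2 against 4, but 287 to 443 for the other control pairs. In the knockout it was 131 for 1 against 3, 90.8 for 2 against 4 and 166 to 249 otherwise. A value near 1 would be counting error alone.

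The promoters of the PAK5 and PAK2 genes are shown because these were the kinases with the largest difference and with a nearly level count, respectively. The sequences are the 250 bases before the start site of transcription, 5′ to 3′ on the strand of the gene, from RefSeq (GRCh38.p14). PAK5 lies at chr20:9839077-9839326 on the minus strand, and PAK2 at chr3:196739607-196739856 on the plus strand. Capitals mark CCAAT boxes, here ATTGG on the strand shown, in PAK5 and GC boxes (GGGCGG or its reverse complement) in PAK2.
PAK5: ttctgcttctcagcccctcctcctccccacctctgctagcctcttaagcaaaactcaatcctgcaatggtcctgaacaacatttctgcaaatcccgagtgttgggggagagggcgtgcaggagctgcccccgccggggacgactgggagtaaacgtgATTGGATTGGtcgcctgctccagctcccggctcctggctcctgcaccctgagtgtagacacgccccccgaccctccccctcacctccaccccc
PAK2: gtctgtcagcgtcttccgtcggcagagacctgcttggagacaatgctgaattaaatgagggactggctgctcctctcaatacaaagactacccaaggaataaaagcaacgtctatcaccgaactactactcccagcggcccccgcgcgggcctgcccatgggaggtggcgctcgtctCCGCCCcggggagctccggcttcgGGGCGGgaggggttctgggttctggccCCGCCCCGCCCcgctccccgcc

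A set of 5 short motifs was searched on both strands in 10 RefSeq windows of the 6 kinases, from 250 bases before to 50 bases after a start site. They were the interferon response motif (GAAA, any 2 bases, GAAA), the composite motif of ETS and IRF factors (GGAA, any 2 bases, GAAA), the GC box GGGCGG, the CCAAT box CCAAT and the TATA box TATAAA. The first and second of these differ only in the letter after the opening G. Among all 35116 windows, 3.57% held the interferon response motif, 2.82% the composite motif, 45.0% a GC box, 34.6% a CCAAT box and 11.5% a TATA box. The single PAK5 window held 2 adjoining CCAAT boxes and none of the other motifs, with 17 CpG dinucleotides and 64.0% GC against medians of 14 and 58.7% over all windows. The PAK2 window held 4 GC boxes and the PAK1 window 3. PAK3 was the only kinase of the 6 with a match to either IRF motif, once in each of 2 of its 3 windows. Both stretches are shown on the plus strand, with the match in capitals as its reverse complement. The first lies at chrX:110944218-110944247 and the second at chrX:111095973-111096002.
PAK3, composite motif: actggaagggTTTCACTTCCgcctggctgc
PAK3, interferon response motif: ttccatctccTTTCCCTTTCcctctccatg
These matches describe letters in a window and not the binding of a factor. Which start sites the MV4-11 cells used was not analysed here.

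Among the 6 kinases, PAK5 differed most between the groups. It is a group II kinase that binds CDC42 and is found in part at mitochondria. It stood at 203, 128, 194 and 109 normalized counts in control replicates 1 to 4 and at 0, 3.82, 1.35 and 3.93 in IRF8 KO replicates 1 to 4. Every control library was thus far above every knockout library. The means were 158 ± 47.0 and 2.28 ± 1.93 (SD, n = 4 each), so that the knockout mean was 1.44% of the control mean.

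Whole reads could be recovered from the normalized counts, and PAK5 had 252, 148, 181 and 116 reads in the control libraries and 0, 4, 1 and 4 in the knockout libraries. The 0 in the knockout library of replicate 1 allows up to 3 reads. Over all libraries, 9 reads in the knockout stood against 697 in the control. Scaled to depth, PAK5 in the knockout was at 1.52% of its control level (exact 95% interval 0.691% to 2.90%), or 65.9-fold lower (interval 34.5 to 145). These intervals cover counting error only. PAK5 reads were thus still present in 3 of the 4 knockout libraries.

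On the log2(normalized count + 1) scale the fold change of PAK5 was -5.82 ± 0.54 (SE), which understates a change toward so few reads. With a pseudocount of 5 in place of 1 it was -4.48. Of the 13110 genes with a mean of 10 or more, PAK5 was the 32nd lowest by this value.

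PAK6, the other group II kinase with groups that did not overlap, was found only at a low level. This kinase is known as a partner of the androgen receptor. The 4 control libraries gave 16.1, 15.5, 22.6 and 19.8 normalized counts, and the 4 knockout libraries gave 24.5, 36.3, 35.2 and 33.4. The highest control library lay just below the lowest knockout library. The means were 18.5 ± 3.30 and 32.4 ± 5.37, and the log2 fold change was 0.78 ± 0.28 (SE). Only 18 to 38 reads per library lay behind these values. PAK6 shares its locus with the readthrough gene BUB1B-PAK6 and with an antisense gene, PAK6-AS1. No source used here states the strand setting of the counting, and the paper does not state how reads shared between genes were handled. Reads of these genes may thus be counted for PAK6, or reads of PAK6 left out, and this cannot be told here.

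PAK4, the widely expressed group II kinase that phosphorylates LIM kinase 1, had overlapping groups. It gave 1122, 854, 1220 and 803 normalized counts in the control and 915, 914, 1230 and 1051 in the knockout. The highest values of both groups came from replicate 3, and the control spread covered nearly the whole knockout range. The means were 999.8 ± 203 and 1027 ± 149, and the log2 fold change of 0.05 ± 0.18 (SE) was smaller than its error. Its sign turned when control replicate 2, control replicate 4 or IRF8 KO replicate 3 was left out (-0.02, -0.05 and -0.04).

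Within group I, PAK2 showed the smallest change for its spread. PAK2 is expressed in most cells and is cut by caspases during apoptosis. Its control libraries gave 27236, 25565, 26146 and 26494 normalized counts and its knockout libraries 29118, 23181, 20236 and 26947. The knockout libraries lay both above and below all of the control libraries. The means were 26360 ± 698 and 24871 ± 3945, with a log2 fold change of -0.10 ± 0.13 (SE). The coefficient of variation was 2.65% in the control and 15.9% in the knockout.

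PAK1, the best studied group I kinase and an activator of LIM kinase 1, gave 3077, 2097, 2926 and 2386 normalized counts in the control and 2376, 1909, 2282 and 1670 in the knockout. Each knockout library lay below the control library of the same number, yet the groups overlapped. The means were 2622 ± 459 and 2059 ± 329, so that the knockout was at 78.6% of the control, with a log2 fold change of -0.35 ± 0.17 (SE).

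PAK3, a group I kinase of neurons, gave 263, 348, 253 and 335 normalized counts in the control and 247, 610, 330 and 873 in the knockout. Knockout replicates 2 and 4 lay above all control libraries, whereas 1 and 3 lay within or below the control range. The means were 299.8 ± 48.4 and 515 ± 284, with a log2 fold change of 0.62 ± 0.38 (SE) between overlapping groups. The coefficient of variation was 16.2% in the control and 55.2% in the knockout. The neuronal markers RBFOX3 and SNAP25 were at 0 in every library, and the summed level of the 6 neuronal markers was 103 to 217 in the control and 56.4 to 125 in the knockout. Of the 6, only SYP and ELAVL4 reached a mean of 10. The mean of ELAVL4 was 104 in the control and 18.9 in the knockout, without overlap. That of SYP was 48.5 and 63.9, with overlapping groups.

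**Figure D1:**
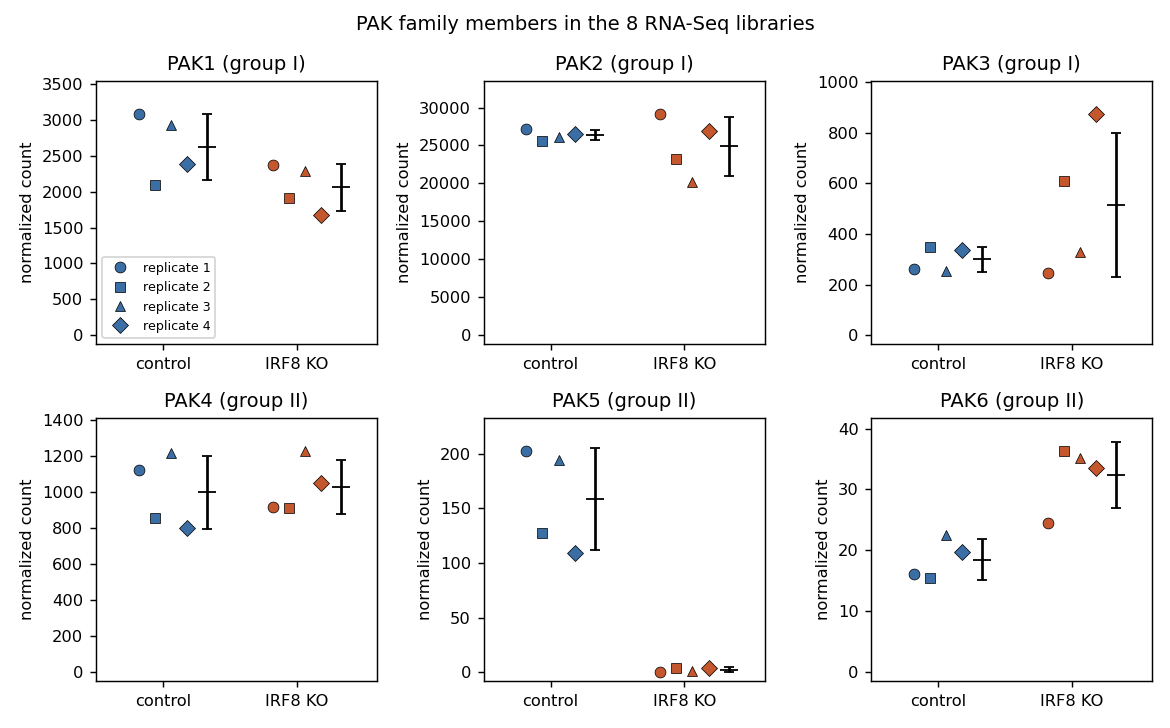
Normalized counts (y axis, linear, a separate scale for each gene) of the 6 PAKs in the 4 control libraries (blue) and the 4 IRF8 KO libraries (orange), with the marker shape giving the replicate number and the bar the mean ± SD. PAK5 lies at 109 to 203 in the control and at 0 to 3.93 in the knockout, the PAK6 groups lie apart by a small gap, and the other 4 kinases overlap.

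In all, 2 of the 6 kinases had groups that did not overlap, PAK5 lower and PAK6 higher. Over all 13110 genes tested, 25.3% had groups that did not overlap, 13.0% with lower and 12.3% with higher values in the knockout, and 9.56% passed the limma test as lower and 8.65% as higher. Levels of the 6 kinases were not set against each other, since normalized counts are not divided by transcript length.

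Ratios between kinases were taken within each library on the log2(normalized count + 1) scale, and only their change between groups was read. PAK5 relative to PAK4 moved from a log2 ratio of -2.68 ± 0.17 (SD, n = 4) in the control to -8.54 ± 1.08 in the knockout, with no overlap, although the pseudocount sets much of the knockout value at 0 to 4 reads of PAK5. PAK6 relative to PAK4 moved from -5.68 ± 0.31 to -4.95 ± 0.24, again with no overlap. Among the group I kinases, PAK1 relative to PAK2 was -3.35 ± 0.23 and -3.59 ± 0.35, and PAK3 relative to PAK2 was -6.47 ± 0.26 and -5.75 ± 0.86, both with overlap. PAK4 relative to PAK2 also overlapped (-4.74 ± 0.28 and -4.59 ± 0.40). The ratios with PAK5 or PAK6, whose own groups did not overlap, thus separated the groups, and the other 3 did not. With PAK4 nearly level, these ratios restate the differences given above and are not a further result.

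Knockout and control libraries were also compared by replicate number. Libraries with the same number deviated together from their group means (r of 0.37 to 0.50 across genes), but so did 1 with 3 and 2 with 4 (0.40 to 0.47), so these values do not single out the number. PAK5 was lower in the knockout in each of the 4 pairs, with log2 ratios of -7.67, -4.74, -6.37 and -4.48. PAK6 was higher in each pair (0.58, 1.18, 0.62 and 0.73), and PAK1 was lower in each (-0.37, -0.14, -0.36 and -0.51). The signs were mixed for PAK2 (0.10, -0.14, -0.37 and 0.02), for PAK3 (-0.09, 0.81, 0.38 and 1.38) and for PAK4 (-0.29, 0.10, 0.01 and 0.39). For PAK5 and PAK6 the common sign follows from groups that did not overlap, and any pairing would give it. For PAK1, whose groups overlapped, it depends on pairing by number. The sizes for PAK1 and PAK6 stayed far below that of PAK5.

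**Figure D2:**
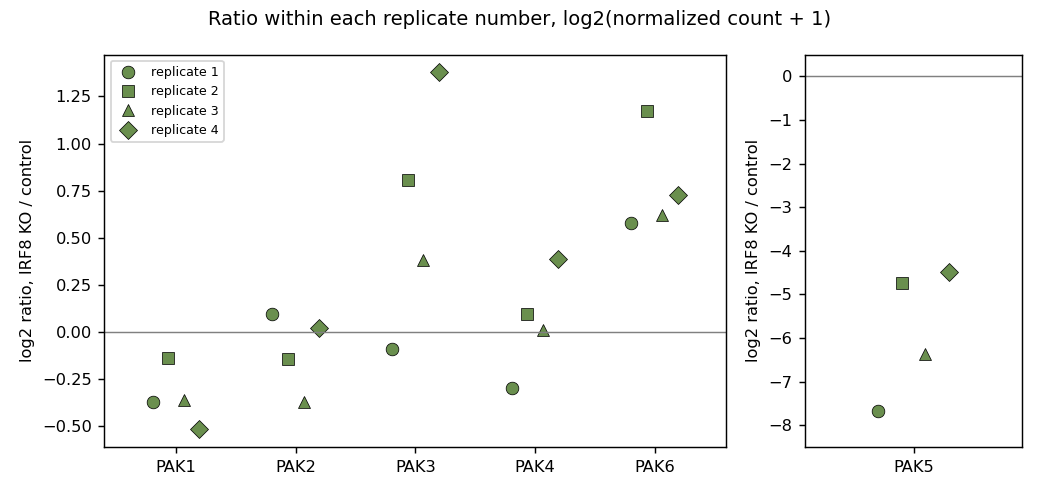
Log2 ratio of IRF8 KO to control within each replicate number (y axis, from normalized count + 1) for 5 PAKs on the left and PAK5 on its own scale on the right, with marker shapes for replicates 1 to 4. PAK5 and PAK1 lie below 0 and PAK6 above 0 in all 4 pairs, while PAK2, PAK3 and PAK4 lie on both sides.

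The difference between replicates 1 and 3 and replicates 2 and 4 was seen in some of the PAKs. In the control, the log2 ratio of replicates 2 and 4 to replicates 1 and 3 was -0.42 for PAK1, -0.50 for PAK4 and -0.74 for PAK5, but 0.40 for PAK3. In the knockout it was -0.38 for PAK1, -0.11 for PAK4 and 1.35 for PAK3, and for PAK5 it was 1.67, opposite in sign to the control and resting on 0 to 4 reads per library. PAK1 and PAK3 thus went opposite ways between the same libraries in both groups. For PAK2 it was close to 0 (-0.04 in the control and 0.04 in the knockout). IRF8 itself differed by -1.11 and -1.07 in the control and the knockout, although knockout replicate 4 (7820) was above knockout replicate 1 (6377). In the knockout this ratio therefore rests on the low replicate 2 (2401) and the high replicate 3 (12903). What separates these libraries is not given in the labels, and its part in the values was not tested.

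Over the 8 libraries, PAK1 and PAK3 had a Pearson correlation of -0.88 on the log2(normalized count + 1) scale, and PAK5 and PAK6 of -0.78. These are descriptions over 8 points in 2 groups, and the points share their libraries. The genes whose pattern was most like that of PAK5 were CD1A, which presents lipid antigens on dendritic cells (r = 0.997), CLEC10A, a lectin of dendritic cells and macrophages (r = 0.995), and ATXN7L3, a subunit of a deubiquitinating module (r = 0.994). CD1A went from 393 ± 169 to 10.8 ± 6.53 normalized counts and CLEC10A from 1586 ± 513 to 25.7 ± 15.9. Their log2 fold changes were -5.17 and -6.10, on either side of that of PAK5, but that of ATXN7L3 was -0.24.

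By the same measure over the 8 libraries, PAK1 was most like GMPPB (0.994), KIAA0930 (0.993) and FASTKD5 (0.984). Among the genes most like PAK2 were MTMR6 (0.947) and BAZ2B (0.939). PAK3 was most like the zinc and manganese transporter SLC39A8 (0.980), TRIM39 (0.972) and NMD3 (0.960). Among the genes most like PAK4 were C1orf52 (0.976) and RPF2 (0.970). The genes most like PAK6 were MAP2, a microtubule protein (0.963), LHFPL6 (0.960) and NPR2 (0.953), with log2 fold changes of 2.0, 1.01 and 2.07.

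PAK5 lies on chromosome 20, whose genes as a whole were lower in the knockout. Without PAK5, the 350 tested genes of the chromosome had a median log2 fold change of -0.92, 321 were lower, and 213 passed an adjusted p of 0.05 (limma) as lower, against 9.56% of all genes tested. Relative to the median of the chromosome in each library, PAK5 was still lower by a log2 difference of -4.91. Among the tested genes of chromosome 20, only FERMT1 (-8.82), SDC4 (-7.43) and ACSS1 (-6.26) had lower log2 fold changes than PAK5. The other PAKs lie on chromosomes 11, 3, X, 19 and 15.

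Of the 4 tested genes on either side of PAK5, 7 were lower in the knockout and 6 of these passed the test. The bone morphogenetic protein BMP2 (log2 fold change -3.05, adjusted p = 0.016 by limma), TMX4 (-1.68, adjusted p = 5.7e-04) and LAMP5, a lysosomal membrane protein of dendritic cells (-0.50, adjusted p = 0.0097), fell on one side. On the other side ANKEF1 (-2.14, limma adjusted p = 0.0015), the chaperonin-like MKKS (-0.79, adjusted p = 0.0018) and SLX4IP (-0.73, adjusted p = 0.011) fell. PLCB4, a phospholipase, did not pass (-0.24, limma adjusted p = 0.76). JAG1, a ligand of Notch receptors, rose from 162 ± 106 to 1456 ± 719 normalized counts (3.27, limma adjusted p = 0.0050). The log2 fold change of PAK5 (-5.82) was therefore lower than those of all 8 of these neighbours. With replicates 1 and 3, and 2 and 4, averaged into 1 value each, which leaves 2 values a group, 0 of the 8 passed as lower by limma (6 at an unadjusted p below 0.05), and 1.26% of all genes tested passed in either direction.

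**Figure D3:**
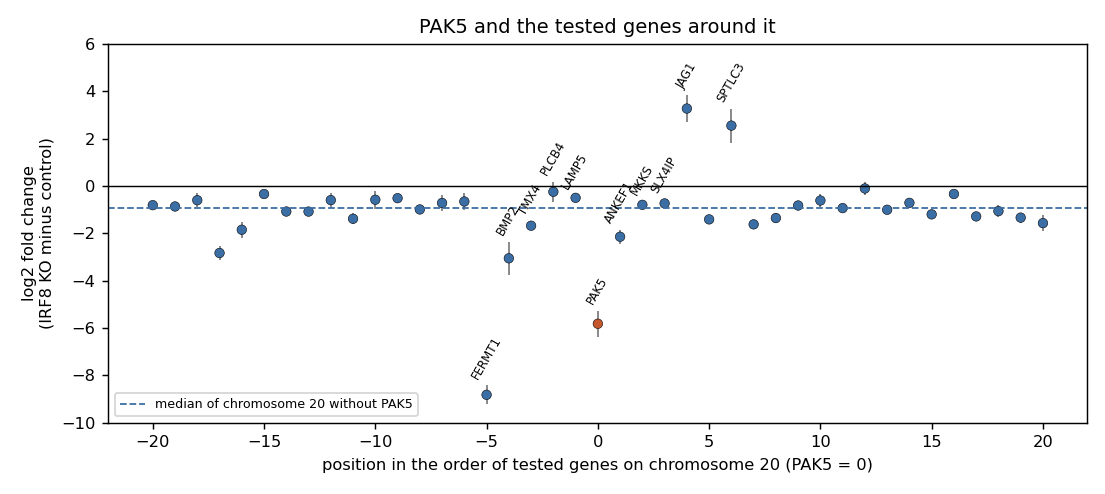
Log2 fold change of IRF8 KO against control (y axis, point and SE) for PAK5 (orange) and the 40 tested genes around it on chromosome 20 (blue), in gene order along the x axis, with the dashed line at the chromosome median. Of the 40 genes, 38 lie below 0, and FERMT1 at -8.82 is the only one below PAK5 at -5.82.

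To see what else of the pathway differed, 8 lists of PAK partners with 132 genes were read in the same comparison. The table held 131 of them, and 118 were tested. At an adjusted p below 0.05 (limma), 16 fell and 9 rose, or 21.2%, against 18.2% of all genes tested. The median log2 fold change was -0.02 over the lists and -0.0009 over all genes. Without the genes of chromosome 20, 21 of 113 passed (18.6%). The share of called genes over the lists was thus near that of the whole table. With the replicate number as a block 34 of the 118 passed, against 28.7% of all genes. Without control replicate 1, control replicate 3, control replicate 4 or IRF8 KO replicate 4, 15, 16, 15 and 15 passed. The shares of all genes in fits that left out 1 library are not given here. With averaged replicates 1 passed (FGD2), against 1.26% of all genes tested.

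Exchange factors, which load RAC and CDC42 with GTP, differed in both directions. Of the 25, 4 were called lower and 4 higher, against 9.56% and 8.65% of all genes tested. In all, 5 were called without control replicate 1, control replicate 2 or IRF8 KO replicate 4. Among the 25 tested, the fall of FGD2, an exchange factor for CDC42, was the steepest, from 418 ± 70.2 to 45.0 ± 12.4 normalized counts (-3.21 ± 0.25 (SE), adjusted p = 1.1e-04 by limma). VAV2 fell (-1.66 ± 0.23, limma adjusted p = 0.0017) and VAV3, of the same family, rose (1.25 ± 0.13, adjusted p = 3.9e-04). Likewise ELMO2, a partner of DOCK exchange factors on chromosome 20, fell (-1.16 ± 0.12, limma adjusted p = 4.5e-04), whereas ELMO1 rose from 1536 ± 227 to 4413 ± 641 (1.52 ± 0.16, adjusted p = 4.1e-04). The median log2 fold change of chromosome 20 without PAK5 was -0.92, not far from that of ELMO2. PREX1, also on chromosome 20, fell (-1.09, limma adjusted p = 0.044) and FGD4 rose (1.66, adjusted p = 0.046), but PREX1 lost the call in 6 and FGD4 in 7 of the 8 fits that left out 1 library (highest limma adjusted p of 0.10 each). DOCK8, highest by mean count, did not pass (0.20, limma adjusted p = 0.51).

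Among the PIX, GIT and other adaptors that place PAKs at adhesions, 1 of 10 passed, against 18.2% of all genes tested. With the replicate block 2 passed, against 28.7% of all genes. PARVB passed (0.61, limma adjusted p = 0.012), and GRB2, highest by mean count, did not (-0.16, limma adjusted p = 0.28). Of 8 inhibitors and phosphatases, the phosphatase PPM1F, which removes the activating phosphate of PAKs, fell (-0.38, limma adjusted p = 0.037), and NISCH, highest by mean count, did not pass (-0.15, adjusted p = 0.73). In the list of upstream kinases, 2 of 5 were called lower, against 9.56% of all genes tested. These were CSNK2A1, a catalytic subunit of casein kinase 2 on chromosome 20 (18521 ± 2055 to 8324 ± 1693, -1.17, limma adjusted p = 0.0018), and AKT1 (-0.49, limma adjusted p = 0.046). The median log2 fold change of chromosome 20 without PAK5 was -0.92. PPM1F and AKT1 each lost the call in 7 of the 8 fits that left out 1 library, and PARVB in 0 of them. PARVB, PPM1F, AKT1 and LIMK1 are named because few genes of their lists passed, and were chosen after their values were seen.

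Downstream of the PAKs, 3 of 21 substrates and members of the LIMK-cofilin branch passed, against 18.2% of all genes tested. LIMK1, the LIM kinase that PAK1 and PAK4 phosphorylate, fell (-0.62, limma adjusted p = 0.0082). FLNA, the actin crosslinker filamin A and the gene of the list with the highest mean count, fell from 108587 to 64813 normalized counts (-0.81, limma adjusted p = 0.041). LIMK1 kept its call in all of the 8 fits that left out 1 library, whereas FLNA lost the call in 7 (highest limma adjusted p of 0.11).

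Other effectors of RAC and CDC42, which compete with PAKs for the same GTPases, were called lower in 4 of 21 cases and higher in 1. Of all genes tested, 9.56% were called lower and 8.65% higher. With the replicate block 8 passed, against 28.7% of all genes. Without control replicate 2, control replicate 4 or IRF8 KO replicate 4, 3, 2 and 3 passed. MAP3K9, a mixed lineage kinase, fell (-1.32, limma adjusted p = 0.019), as did the scaffold IQGAP3 (4109 ± 105 to 1857 ± 470, -1.18, adjusted p = 0.0022). CDC42EP3, highest by mean count, did not pass (-0.55, limma adjusted p = 0.14), but did with the block (adjusted p = 0.0060). Among 21 tested kinases of the wider STE20 group, to which the PAKs belong, 3 fell and 2 rose, beside the same shares of all genes. Without control replicate 1 or 3, 3 were called in all. MAP4K1, a kinase of blood cells, fell from 639 ± 107 to 239 ± 119 (-1.51, limma adjusted p = 0.0089) and STK39, which acts on ion cotransporters, fell (-1.31, adjusted p = 0.018). TNIK, a kinase of Wnt signalling, rose from 283 ± 109 to 994 ± 456 (1.76, limma adjusted p = 0.018). The calls were lost for MAP3K9 without control replicate 4, for STK39 without IRF8 KO replicate 3 and for TNIK without IRF8 KO replicate 4 (limma adjusted p of 0.058, 0.0504 and 0.053). MAP4K4, highest by mean count, did not pass (-0.04, limma adjusted p = 0.88).

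**Figure D4:**
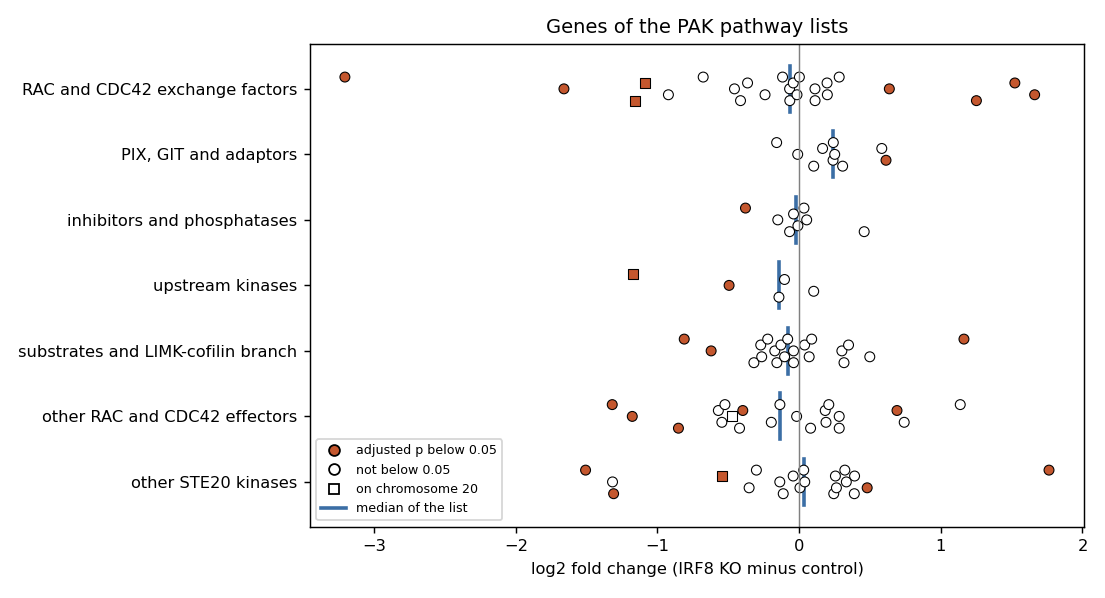
Log2 fold change of IRF8 KO against control (x axis) for 111 tested genes of 7 of the 8 lists of PAK partners (y axis), filled where the limma adjusted p was below 0.05, square on chromosome 20, with a blue line at each list's median. Filled points lie on both sides of 0 in the exchange factors, and the list medians lie between -0.14 and 0.24.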

How the data were processed

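RNA-Seq of 8 MV4-11 libraries was analysed. The authors used RNA-Star 2.7.2b for alignment, featureCounts 2.0.1 with GENCODE v32 for counting per gene, and DESeq2 for normalization. The deposited signal per gene is the authors' read count divided by the library's size factor. The labels name hg19 and hg38 without a role. The authors' table of their own comparison (fold changes and p-values) and the 2 ChIP-Seq samples were not used here.

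Columns headed WT were matched to the control replicates by number. Dividing by the value of 1 read gave whole reads for 100% of values within 0.01, and edgeR 4.0.16 and DESeq2 1.42.0 were run on these reads as alternatives. Under R 4.3.3, limma 3.58.1 was fitted to log2(normalized count + 1), with a trended, robust prior, for 13110 genes with a mean of at least 10, adjusted by Benjamini-Hochberg and called at 0.05. It was tested on simulated counts drawn independently for each library. These lacked the likeness between replicates that the data show, so the test does not cover that case. RefSeq genes (GRCh38.p14) gave chromosomes and gene order for 12990 of these genes. All 6 PAKs matched the promoter sequences.

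Same-numbered control and knockout libraries deviated together (r of 0.37, 0.48, 0.45 and 0.50 across genes, all above 0.1), and the number was used as a block on that ground. Replicate 1 deviated as much with 3 (0.47 and 0.41) and 2 with 4 (0.40 and 0.41), so a split of these libraries and a pairing by number cannot be told apart. What a number marks is not given. The block value is printed where it changes a call.

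Named genes were the PAKs, IRF8, per list the called genes with at least a 2-fold difference (at most 4 per direction) and the gene with the highest mean count, 4 tested neighbours of PAK5 per side, and the 3 genes most correlated with each PAK. For PAK2 and PAK4, 1 such gene each, and beside these 1 list and 1 gene of another list, are not reported here on their own. The members and lists were chosen with earlier results of these data known. The averaging of replicates and the removal of chromosome 20 genes were chosen after seeing the data. A comparison of levels among the PAKs per transcript length was not run, since no lengths were used here.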

Additional observations from a re-analysis of the deposited data

Results flagged for a closer look

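Among the 72 sets of 4 libraries checked for the named genes, 4 held a library far from the other 3 by Dixon's criterion, and chance gives about 1 in 20. None of the 4 was a PAK. ELMO1 stood at 1199 normalized counts in control replicate 2, against 1604 to 1683 in the others. MAP4K1 stood at 418 in IRF8 KO replicate 2, against 172 to 184. PLCB4 stood at 13.9 in IRF8 KO replicate 1, against 24.6 to 25.7. SLX4IP stood at 735 in control replicate 1, against 897 to 913.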

How the results depend on the processing

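PAK1, PAK2, PAK3, PAK5 and PAK6 kept the sign of their log2 fold change under all alternatives run. Leaving out 1 library gave -0.45 to -0.25 for PAK1, -0.18 to -0.003 for PAK2, 0.31 to 0.91 for PAK3, -6.10 to -5.33 for PAK5, 0.70 to 0.90 for PAK6 and -0.047 to 0.15 for PAK4, whose sign turned without control replicate 2 (-0.02), control replicate 4 (-0.047) or IRF8 KO replicate 3 (-0.04). PAK5 moved to -4.48 with a pseudocount of 5 and to -4.91 relative to the chromosome median. IRF8 ranged from -2.46 to -1.65 without single libraries, and it lost its call there (limma adjusted p up to 0.058) and with replicates averaged (-2.11, limma adjusted p = 0.15). The count of called pathway genes was 15 to 24 without single libraries and 1 with replicates averaged, and that of PAK5 neighbours called lower was 6 without any single library and 0 with replicates averaged. Of all genes tested, 1.26% passed with replicates averaged and 28.7% with the replicate block. With the block the pathway count was 34 and IRF8 had a limma adjusted p of 6.3e-04. Among the single genes and lists beside these, 584 outcomes were unchanged in direction and side of the threshold, 97 lost and 14 gained the threshold, and 4 turned sign, MAP4K4 without control replicate 2 (0.032, range -0.12 to 0.032) or IRF8 KO replicate 3 (0.026), NISCH without IRF8 KO replicate 3 (0.021, range -0.29 to 0.021) and PLCB4 without control replicate 3 (0.050, range -0.53 to 0.050). The cause of these changes was not tested. PAK6, with 18 to 38 reads per library, and PAK5 in the knockout rest on few reads.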
